A study of Rattus rattus with 8 samples.

Results

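The genes described here handle retinoids, the vitamin A compounds, in rat liver: they make retinoic acid, break it down, store retinol as an ester and carry it in the blood. The list held 8 genes, namely Aldh1a1, Aldh1a7, Cyp26a1, Rdh2, Rdh10, Rbp4, Lrat and Rarb. The gene symbols of the array's probe table gave features to 6 of them, and all 6 were among the 10944 genes that could be tested of 16945 named. Aldh1a7 and Rarb are not named in that table and were not analysed here. The 8 genes were chosen from earlier results on these same arrays, with the differences between the diets in view, and Aldh1a1, Cyp26a1 and Rdh2 were already known to be among the larger differences. Their diet differences are therefore given as levels, folds and errors without p-values, and the grouping is no evidence that the pathway responded.

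Liver RNA of 8 male rats, given in the labels as Rattus rattus of strain WH, was hybridised to Agilent arrays in a single colour, Cy3, with 1 array for each rat. NaPB (sodium phenobarbital) was given in the diet at 2500 ppm to 4 rats, and the other 4 rats, the controls, ate diet with 0 ppm, for 7 days in both groups. No age is given in the labels, and no pooling of animals. Levels are in scaled intensity, the deposited spot intensity divided by the 75th percentile of the named features of its array, and a gene's level is the mean of its features on the log2 scale. Values under 0.03 were set to 0.03, the floor, which held 31.8% to 34.5% of the named features of an array. An intensity depends on the probe, so levels are compared between livers for 1 gene and never between genes. Exposure showed in Cyp2b2, a P450 that phenobarbital induces, at 111 to 138 in NaPB livers, against 4.41 to 6.49 in control livers. Alb, which encodes the albumin made by hepatocytes, stood at 164 to 193 in NaPB livers and at 183 to 202 in control livers.

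Retinol is oxidized to retinaldehyde by retinol dehydrogenases, a step that can run in both directions, and retinaldehyde is oxidized irreversibly to retinoic acid by aldehyde dehydrogenases. Retinoic acid activates nuclear receptors of the RAR family, which act as partners of RXR proteins, and it is inactivated by P450s of the CYP26 family, whose first member is itself a classic target of the receptors. Liver is the main store of vitamin A: stellate cells, which lie beside the sinusoids, hold it as retinyl ester made by LRAT, and hepatocytes secrete it bound to retinol-binding protein.

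Of the 6 genes, Aldh1a1 and Cyp26a1 stood far higher in NaPB livers, Rdh10 slightly higher and Rdh2 lower, while Lrat and Rbp4 overlapped between the diets. In a limma fit across all tested genes with Benjamini-Hochberg adjustment at 0.05, 3 of the 6 lay on the higher side of the threshold and 1 on the lower side. Over all genes tested 10.5% crossed it, 6.16% higher and 4.29% lower. Fewer did when any single array was left out, 622 to 958 genes in place of 1144. The counts were lowest without control replicate 1, 2 or 3 (688, 622 and 747 genes). The groups did not overlap in 4 of the 6 genes, and in 19.1% of all genes tested. Since the genes were chosen with this comparison known, nothing is read from these counts.

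**Figure D1:**
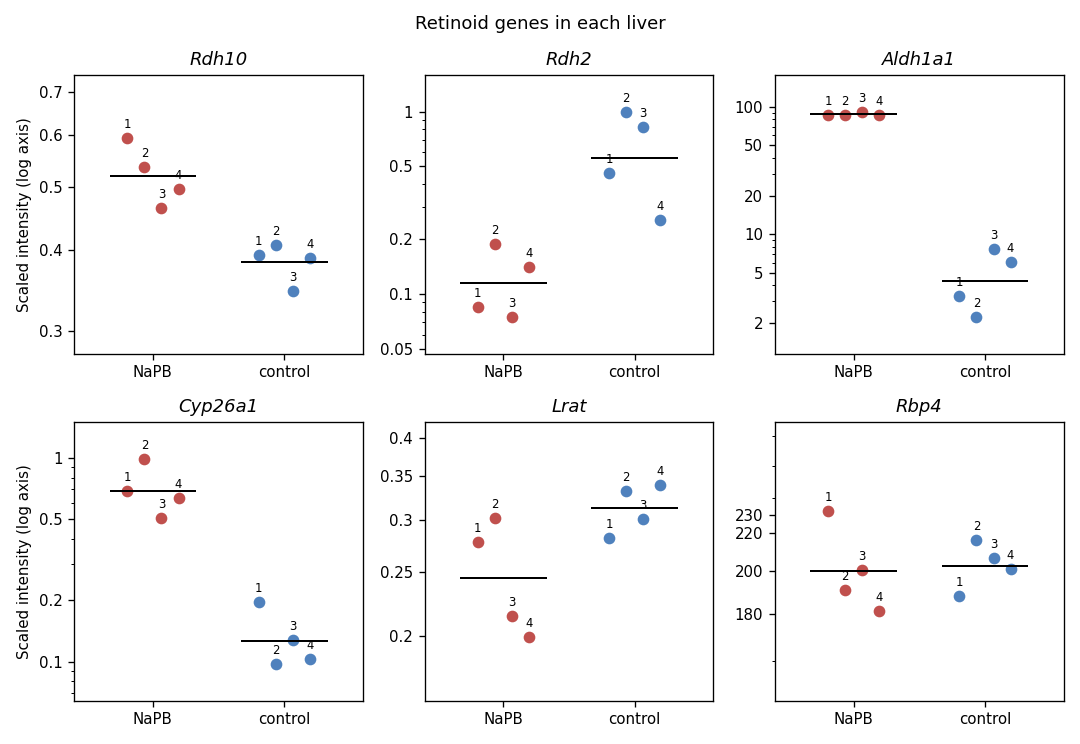
Scaled intensity (log axis, 1 scale per panel) of the 6 retinoid genes in each of the 4 NaPB and 4 control livers; points carry the replicate number and bars are means of the log2 values. Aldh1a1 lay between 86.0 and 91.7 in NaPB livers and between 2.25 and 7.67 in control livers, while the groups of Rbp4 and of Lrat overlap.

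Rdh10 and Rdh2 act at the first step, from retinol to retinaldehyde. Rdh10, the retinol dehydrogenase that embryos of the mouse need to make retinoic acid, stood at 0.595, 0.536, 0.463 and 0.496 in NaPB livers 1 to 4, against 0.393, 0.407, 0.346 and 0.389 in control livers 1 to 4. The lowest NaPB liver lay above the highest control liver, by a small margin. Its log2 difference was 0.44 ± 0.10 (here and below NaPB minus control ± SE, from 4 rats in each group), or 1.36-fold. Neither of its 2 features crossed the threshold by itself, at 0.46 ± 0.12 and 0.42 ± 0.11. The gene also lost its place past the threshold without NaPB replicate 1 (0.38), NaPB replicate 2 (0.43), control replicate 1 (0.45) or control replicate 3 (0.39), and with its brightest feature alone or no filter on low values.

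Rdh2, a retinol dehydrogenase of the short-chain family known from rat liver, went the other way. Its level was 0.0853, 0.189, 0.0751 and 0.141 in NaPB livers 1 to 4, against 0.459, 0.997, 0.819 and 0.255 in control livers 1 to 4. All NaPB livers lay below all control livers, though control liver 4 was close to NaPB liver 2. The log2 difference was -2.28 ± 0.45, with the control livers 4.86-fold above the NaPB livers, and it was the 6th lowest of all tested genes. The 4 features of Rdh2 fell into a brighter and a dimmer pair that did not give the same size. In the brighter pair, which never reached the floor, the levels were 0.243, 0.573, 0.188 and 0.321 in NaPB livers and 0.910, 1.72, 1.47 and 0.557 in control livers, a log2 difference of -1.81 ± 0.50 (SE from the livers). NaPB liver 2 lay just above control liver 4 there, so that the groups of the brighter pair overlapped. The dimmer pair gave -2.75 ± 0.60, with 4 of its 8 NaPB values at the floor and 0 of its 8 control values. That size is limited by the floor, as is the mean over all 4 features, which was -1.68 with a floor of 0.1. With no filter on low values Rdh2 no longer crossed the threshold. Rdh7 is a closely related gene, and whether its transcript also binds features of Rdh2 was not tested.

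Aldh1a1, the retinaldehyde dehydrogenase of adult liver, had the largest difference of the group. Its level was 86.0, 86.3, 91.7 and 86.7 in NaPB livers 1 to 4, against 3.30, 2.25, 7.67 and 6.12 in control livers 1 to 4. Every NaPB liver was more than 10 times above every control liver, and the 2 features gave nearly the same value, 4.31 ± 0.33 and 4.37 ± 0.35. The log2 difference of the gene was 4.34 ± 0.34, or 20.3-fold, the 4th highest of all tested genes. The spread was unequal between the diets: the highest NaPB liver was 1.07-fold above the lowest, whereas the highest control liver was 3.40-fold above the lowest. Expressed as an SD of log2 values, the spread was 0.04 in NaPB livers, where 3.92% of tested genes had a smaller one, and 0.81 in control livers, where 98.6% had a smaller one. The medians over all tested genes were 0.15 in NaPB livers and 0.14 in control livers. Aldh1a7, its close relative known in the rat as a phenobarbital-inducible aldehyde dehydrogenase, has very similar coding sequence, and whether its transcript also binds the features of Aldh1a1 was not tested.

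Cyp26a1, the P450 that hydroxylates retinoic acid and so inactivates it, was higher as well. It stood at 0.689, 0.994, 0.509 and 0.636 in NaPB livers 1 to 4, against 0.196, 0.0977, 0.128 and 0.103 in control livers 1 to 4. The lowest NaPB liver was well above the highest control liver, and no value was at the floor. The log2 difference was 2.44 ± 0.26, or 5.44-fold, the 28th highest of all tested genes, and its 2 features gave 2.50 ± 0.24 and 2.39 ± 0.29. Within a diet the livers of Cyp26a1 differed up to 1.95-fold (NaPB) and 2.01-fold (control). NaPB liver 2 was the highest of its group for both Cyp26a1 and Rdh2, and NaPB liver 3 the lowest for both.

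**Figure D2:**
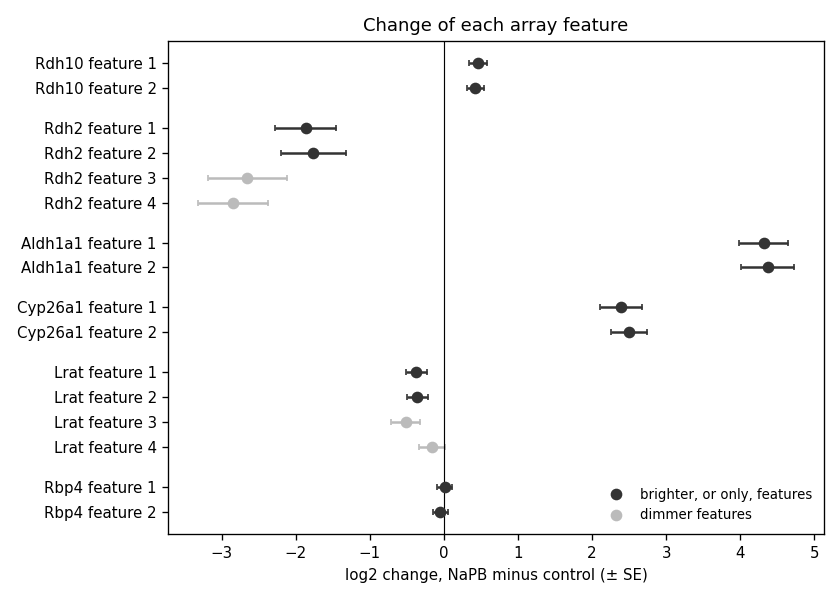
Change of each of the 16 array features of the 6 genes as log2 difference, NaPB minus control, with the SE from the fit over all named features (n = 4 rats per group); grey points are the dimmer pair of genes with 4 features. The 4 features of Rdh2 spread from -2.84 to -1.76, while the pairs of Aldh1a1 and Cyp26a1 each agree within their SE.

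Lrat, the acyltransferase that makes retinyl esters for storage, did not cross the threshold. Its brighter pair of features stood at 1.81, 1.79, 1.38 and 1.33 in NaPB livers 1 to 4, against 1.67, 2.13, 2.05 and 2.22 in control livers 1 to 4. NaPB livers 3 and 4 lay below all controls, and NaPB livers 1 and 2 lay above control liver 1. That pair gave a log2 difference of -0.37 ± 0.15 (SE from the livers), and the mean of all 4 features gave -0.35 ± 0.14, with a 95% interval of -0.68 to -0.03 that is not adjusted for the number of genes. The dimmer pair lay near the floor throughout, at 0.03 to 0.0512 in NaPB livers and 0.0441 to 0.0518 in control livers, with 3 of its 8 NaPB values at the floor.

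Lrat is a gene of stellate cells, so the other markers of these cells are given beside it. Of 19 such markers written down apart from Lrat, 17 were named on the array and 16 were tested. Of these, 5 were lower with NaPB, 0 were higher and 11 did not pass. Over all genes tested 4.29% were lower and 6.16% higher. Their median log2 change was -0.25, against 0.0015 over all tested genes. Beside it, the 9 hepatocyte markers had a median of -0.28, with 8 below zero, 2 lower (Cps1 at -0.63 and Apoc3 at -0.56) and 1 higher (Hnf4a at 0.57). The medians of the other marker lists were -0.13 (Kupffer cells), -0.03 (sinusoidal endothelium), -0.07 (lymphocytes) and 0.60 (bile duct). Of the 5 lower stellate cell markers, Pdgfrb, a receptor of platelet-derived growth factor, fell by 1.10 ± 0.11 (adjusted p = 0.00075), with 0.291 to 0.380 in NaPB livers and 0.657 to 0.764 in control livers. The other 4 were Col3a1, a fibrillar collagen, at -0.50 ± 0.13, the hepatocyte growth factor gene Hgf at -0.50 ± 0.11, Cygb, which encodes cytoglobin, at -0.43 ± 0.10 and Reln, which encodes reelin, at -0.33 ± 0.08 (adjusted p of 0.0453, 0.022, 0.03 and 0.0334). The summed level of the list was 14.0 to 14.5 in NaPB livers and 16.4 to 20.5 in control livers, but such a sum depends on the probes and was made up mostly of Ecm1, Col3a1 and Col1a2, so it does not describe the list as a whole. Lum lay at the floor in every liver. The calls of Col3a1, Hgf, Cygb and Reln were each lost when 1 array was left out, while that of Pdgfrb held in every case. Col3a1 kept its call only without control replicate 3. Reln kept it only without control replicate 4, and Cygb only without NaPB replicate 1 or control replicate 1. Hgf lost it without NaPB replicate 2 or 4 or control replicate 2 or 3, and also with a floor of 0.1 and with its brightest feature. The highest adjusted p among the settings tried was 0.12 for Col3a1, 0.411 for Hgf, 0.105 for Cygb and 0.096 for Reln. In whole liver, fewer cells of a type and less RNA per cell cannot be told apart, and the part of these markers in the level of Lrat was not tested.

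**Figure D3:**
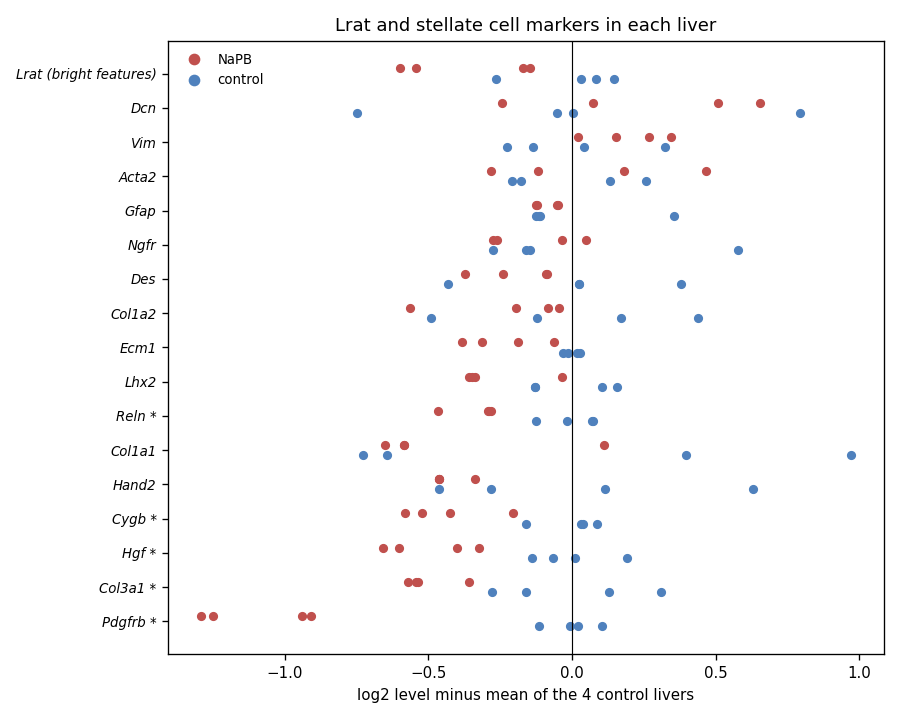
Level of Lrat (brighter features) and of the 16 tested stellate cell markers in each liver, as log2 level minus the mean of the 4 control livers; NaPB livers are drawn above control livers, and an asterisk marks the 5 markers lower with NaPB. Pdgfrb is shifted in all 4 NaPB livers, whereas the points of Lrat overlap between the diets.

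Rbp4, the plasma carrier that hepatocytes load with retinol, did not differ beyond the spread. Its level was 232, 191, 201 and 181 in NaPB livers 1 to 4, against 188, 216, 207 and 201 in control livers 1 to 4. The lowest and the highest liver both belonged to the NaPB group. The log2 difference was -0.02 ± 0.09 (95% interval -0.23 to 0.20), and 0.079 after quantile normalization. Its features gave -0.05 ± 0.10 and 0.01 ± 0.10. Ttr, transthyretin, which binds the loaded carrier in plasma, was at 245 to 301 in NaPB livers and at 266 to 303 in control livers, a log2 difference of -0.08 ± 0.09 (adjusted p = 0.574) that became 0.042 after quantile normalization.

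Over the 16 features of the 6 genes, 8 crossed the threshold in the fit of single features, against 9.69% of all named features tested. These were the 2 of Aldh1a1, the 2 of Cyp26a1 and the 4 of Rdh2. Features of a gene were read on the same livers and are not independent of each other. Whether some are repeat spots of the same probe was not tested, and nothing is read from this count.

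The rest of the pathway was followed in lists by role, written with earlier results of these data known. Apart from the 8 genes, these lists held 75 symbols, with Bcmo1 also written under its newer symbol Bco1. Of these 65 were named on the array and 47 were tested. With NaPB, 4 were higher, 7 were lower and 36 did not pass, so that 23.4% passed, against 10.5% of all genes tested (6.16% higher, 4.29% lower). Leaving out 1 array gave 1 to 4 higher and 5 to 7 lower, with 1 higher without control replicate 1 or 2, and 2 higher without NaPB replicate 2 or 4 or control replicate 3. Their median log2 change was -0.08, against 0.0015 over all tested genes. The same shares of all genes stand beside the counts by role below. Because the lists were written with earlier results known, nothing is read from this share or from those counts.

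Among enzymes that oxidize or reduce retinol and retinaldehyde, 2 of 16 tested were higher, 2 were lower and 12 did not pass, with a median of 0.13. Both risers reduce retinaldehyde back to retinol: Rdh11, at 1.72 to 1.98 in NaPB livers and 1.32 to 1.55 in control livers, rose by 0.37 ± 0.08 (adjusted p = 0.0218), and Dhrs3 rose by 0.37 ± 0.10 (adjusted p = 0.0455). Rdh7, another retinol dehydrogenase of the short-chain family, was at 48.3 to 61.9 in NaPB livers and 74.8 to 82.6 in control livers and fell by 0.53 ± 0.09 (adjusted p = 0.008). Aldh8a1, which can oxidize the 9-cis form of retinaldehyde, fell by 0.34 ± 0.08 (adjusted p = 0.0384). Only Rdh7 among these 4 kept its call without any single array. Rdh11 lost it without NaPB replicate 2 or 4 or control replicate 1 or 2 (adjusted p up to 0.066), Dhrs3 without any array but NaPB replicate 1 (up to 0.114), and Aldh8a1 without any array but control replicate 4 (up to 0.107). Akr1b7 and Akr1b8 of this list, named here after their values were seen, had larger differences but did not pass. They were at 2.56 ± 1.12 and 1.95 ± 0.76 (adjusted p = 0.182 and 0.14), and their groups overlapped. The control livers varied widely, with Akr1b7 at 5.16, 0.220, 0.222 and 5.20 in control livers 1 to 4.

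Aox1, an aldehyde oxidase that accepts retinaldehyde among many substrates, was at 59.0, 51.9, 30.7 and 31.5 in NaPB livers, against 19.5, 18.02, 28.8 and 5.03 in control livers. The groups were separate, but the control livers varied widely, and at 1.47 ± 0.50 it did not pass (adjusted p = 0.0998). Without control replicate 4 the difference was 0.94. Aox3, a related oxidase, was at 0.70 ± 0.69 (adjusted p = 0.554) and at -0.03 without control replicate 4, the liver with the lowest level of both oxidases. The alcohol dehydrogenases Adh1 and Adh4, which also oxidize retinol, were at -0.33 ± 0.15 and 0.28 ± 0.21 (adjusted p = 0.197 and 0.438), and Adh4 ranged from 0.098 without control replicate 3 to 0.40 without control replicate 4. Of the other retinaldehyde dehydrogenases, Aldh1a2 lay at the floor in every liver, as did the retinol dehydrogenase Dhrs9, and Aldh1a3 was within 0.03 and 0.0436 in NaPB livers and 0.03 and 0.0328 in control livers (adjusted p = 0.676).

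**Figure D4:**
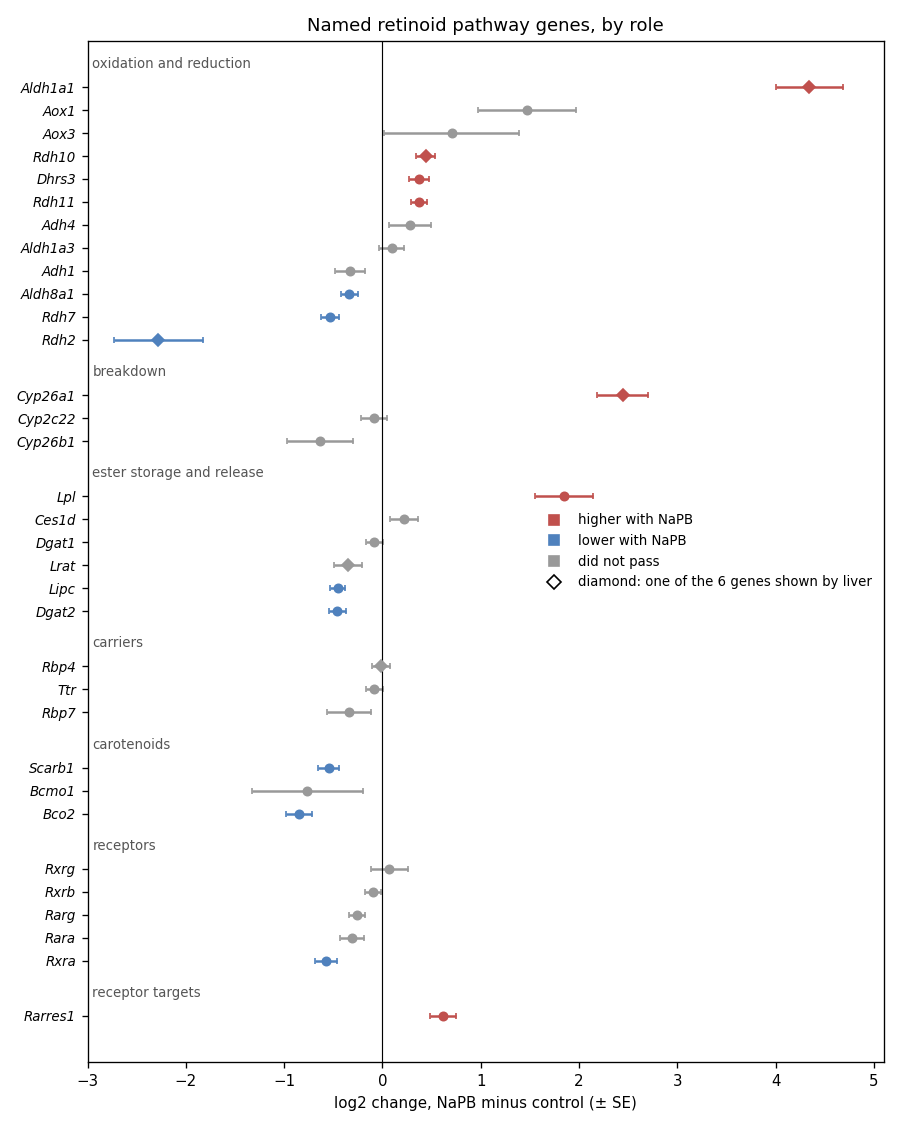
Log2 change, NaPB minus control, with SE (n = 4 rats per group) of the named genes of the retinoid lists that could be tested, by role; red and blue mark genes past the threshold of the fit across all genes, grey the others, and diamonds the 6 genes shown by liver. Among enzymes of breakdown Cyp26a1 stands at 2.44, while Cyp2c22 and Cyp26b1 did not pass, and Rxra is the one receptor past the threshold, on the lower side.

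Of 3 other tested enzymes that break down retinoic acid, 0 passed in either direction in limma, and the unadjusted p was above 0.05 for each. Cyp26b1, the second P450 of that family, was at 0.239, 0.466, 0.214 and 0.211 in NaPB livers, against 0.363, 0.251, 0.552 and 0.581 in control livers. Its groups overlapped and its log2 difference was -0.64 ± 0.33 (adjusted p = 0.257, 95% interval -1.39 to 0.12). Cyp2c22, a rat P450 that can hydroxylate retinoic acid, was at -0.08 ± 0.13 (adjusted p = 0.719).

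In the storage list 1 of 8 tested genes was higher, 2 were lower and 5 did not pass, with a median of -0.07. Dgat2, which makes triglyceride, fell by 0.46 ± 0.09 (adjusted p = 0.013), with 16.9 to 20.5 in NaPB livers and 23.9 to 27.7 in control livers. Dgat1, which can esterify retinol, was at -0.08 ± 0.09 (adjusted p = 0.595). Lipc, the hepatic lipase that hydrolyses lipids of circulating particles, fell by 0.46 ± 0.08 (adjusted p = 0.008). Lpl, lipoprotein lipase, which can release retinol from esters in chylomicrons, was at 0.160, 0.162, 0.155 and 0.0838 in NaPB livers, against 0.0326, 0.03, 0.0315 and 0.0651 in control livers. It rose by 1.85 ± 0.30 (adjusted p = 0.00655), but the floor held 24 of the 40 values its features gave in control livers, and with a floor of 0.1 the rise was 0.51 and missed the threshold (adjusted p = 0.0515). Ces1d, a carboxylesterase that can hydrolyse retinyl esters, was at 0.22 ± 0.14 (adjusted p = 0.353).

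None of the 5 carriers tested apart from Rbp4, Ttr among them, passed in limma, and the unadjusted p was above 0.05 for each of them. Rbp7, a cellular retinol-binding protein, had the largest difference at -0.34 ± 0.22 (adjusted p = 0.369). Stra6, the membrane receptor for the loaded carrier, and Crabp1, a retinoic acid-binding protein, lay at or near the floor and were not tested. Rdh16 is not named in the probe table and was not analysed here.

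Of the carotenoid genes tested, 2 of 4 were lower and 0 higher, with a median of -0.66. Bco2, a mitochondrial enzyme that cleaves carotenoids off centre, was at 0.378, 0.425, 0.531 and 0.438 in NaPB livers, against 0.872, 0.899, 0.731 and 0.687 in control livers, and fell by 0.85 ± 0.13 (adjusted p = 0.00509). Its brightest feature alone gave -0.66, short of the threshold (adjusted p = 0.0615). Scarb1, a receptor for high-density lipoprotein that also takes up carotenoids, fell by 0.55 ± 0.10 (adjusted p = 0.0135). Bcmo1, which cleaves beta-carotene into retinaldehyde, varied too widely to size, at -0.76 ± 0.56 (adjusted p = 0.422) and -0.18 without NaPB replicate 2.

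Of the receptors tested, 1 of 5 was lower and 0 higher, with a median of -0.26. Rxra, the main partner of the retinoic acid receptors in liver, was at 0.267, 0.244, 0.197 and 0.270 in NaPB livers, against 0.391, 0.374, 0.343 and 0.340 in control livers. It fell by 0.57 ± 0.11 (adjusted p = 0.016), and at 0.56 without control replicate 2 the fall no longer passed (adjusted p = 0.0503). Rara and Rarg, the retinoic acid receptors measured here, were at -0.31 ± 0.12 and -0.26 ± 0.08 and did not pass (adjusted p = 0.136 and 0.0858). Without control replicate 1 Rara was at -0.42 and passed (adjusted p = 0.0449). Rxrb and Rxrg were at -0.10 ± 0.08 and 0.07 ± 0.19 (adjusted p = 0.483 and 0.84), and Rxrg changed sign without NaPB replicate 3 or 4 or control replicate 3.

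Of genes known to respond to retinoic acid receptors, 9 were tested apart from Cyp26a1 and Lrat: 2 were higher, 0 lower and 7 did not pass, with a median of -0.0078. The risers were Dhrs3, already given, at 7.55, 9.15, 7.77 and 9.50 in NaPB livers, against 5.93, 6.59, 6.84 and 6.77 in control livers, and Rarres1. Dhrs3 lost its call under 13 of the 19 alternative settings, among them quantile normalization (adjusted p = 0.0519 in limma) and its brightest feature alone (0.0816). Rarres1, named for its response to retinoic acid, was at 10.8, 11.9, 14.6 and 11.9 in NaPB livers, against 7.70, 7.90, 6.81 and 9.76 in control livers. It rose by 0.62 ± 0.13 (adjusted p = 0.0213), and the call was lost without control replicate 1, 2 or 3 (adjusted p up to 0.0609). Tgm2, a transglutaminase named here after its values were seen, was at 4.17 to 4.91 in NaPB livers and 5.05 to 5.75 in control livers, and at -0.29 ± 0.08 it lay just short of the threshold on the lower side (adjusted p = 0.0527). Stra6, another such gene, lay between 0.03 and 0.0381 in NaPB livers and at 0.03 in all control livers.

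The genes whose log2 levels followed each of the 6 most closely over the 8 livers are given as a description, since all points share the diet contrast. For Aldh1a1 these were Gsta5 and Mlec (r = 0.998 and 0.992, n = 8 livers), and for Cyp26a1 Slc35e3 and Nt5m (0.992 and 0.986). Gsta5, a glutathione transferase, had 2.23, 1.55, 3.92 and 2.85 in control livers 1 to 4, which rank the livers in the same order as Aldh1a1. Rdh2 was followed most closely by Qk and Ppp1cc (0.988 and 0.987), and Rdh10 by Selenbp1 and RGD1563049 (0.986 and 0.979). Lrat was nearest to Vps24 and Zbtb43 (0.968 and 0.967) and Rbp4 to Tmem44 and Dgcr2 (0.958 and 0.939).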

How the data were processed

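The deposited values are linear spot intensity from single-colour arrays. The submitters' processing notes name Agilent Feature Extraction 10.7. How background, flagged spots and scaling between arrays were handled is not given in the sources used here. No batch, slide or date is given, so none was tested. Of 62976 features, 45904 carried 1 gene symbol, 0 several and 17072 none. Intensities were scaled to each array's 75th percentile over named features and raised to a floor of 0.03 where lower, and the log2 values of a symbol's features were averaged. A gene was tested where its mean exceeded the floor in 3 or more livers of a diet (10944 of 16945). The 2 diets were compared with limma 3.58.1 (lmFit, eBayes, two-sided) under R 4.3.3. The Benjamini-Hochberg adjustment covered every tested gene, at a threshold of 0.05. The fit was tested on simulated data. Single features were fitted the same way. Python 3.11.15 and matplotlib 3.10.9 drew the figures.

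The genes, lists, processing and tests were chosen with earlier results of these data known. Named were the 6 genes, list genes past the threshold (up to 4 each way, or the largest change), a fixed set named whether or not it passed, stellate cell markers past the threshold, and the 2 genes closest to each of the 6 over the livers. Marker lists of hepatocytes, Kupffer cells, sinusoidal endothelium, bile duct and lymphocytes were counted too. Of their tested members 1 of 9, 0 of 9, 0 of 5, 1 of 4 and 0 of 5 were higher and 2, 1, 1, 0 and 0 were lower with NaPB, in this order. Over all genes tested 6.16% were higher and 4.29% lower, and nothing is read from these counts. Alternatives were other scalings, floors of 0.1 and 0.01, no filter, genes above the median level, the brightest or the median feature, the replicate number as a block, a trended robust prior, and leaving out each array. Replicate numbers belong to different animals and were not treated as pairs. The number of arrays limits the precision.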

Additional observations from a re-analysis of the deposited data

Results flagged for a closer look

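In 11 of 80 groups of 4 livers, 1 liver lay apart from the other 3 by a share of the group's range above Dixon's 95% critical value. Chance flags about 1 in 20 groups where values are normal and groups are independent. The groups here share the same livers, and some hold values at the floor, so the count cannot be set against that share. Among Rdh10, Rdh2, Aldh1a1, Cyp26a1, Lrat and Rbp4 this was seen once: Aldh1a1 was at 91.7 in NaPB liver 3 and at 86.0 to 86.7 in the others (0.887 of the range), a small gap in a tight group. Cyp26b1 was at 0.466 in NaPB liver 2 and at 0.211 to 0.239 in the other NaPB livers (0.846). Lpl was at 0.0838 in NaPB liver 4, against 0.155 to 0.162 in the others (0.936), and at 0.0651 in control liver 4, with the others at 0.03 to 0.0326 (0.894). Aldh1a3 was at 0.0436 in NaPB liver 4 and at 0.03 to 0.0309 in the others (0.921). Reln was at 0.352 in NaPB liver 4, below 0.397 to 0.400 (0.939), and Col3a1 at 4.41 in NaPB liver 3, above 3.81 to 3.91 (0.835). Control liver 1 stood apart for Rara, at 0.948 below 1.247 to 1.294 (0.882), and for Rxrb, at 0.535 above 0.483 to 0.487 (0.910). Aldh8a1 was at 2.52 in control liver 4, below 2.94 to 3.02 (0.838), and Bcmo1 at 0.807 in control liver 3, above 0.387 to 0.437 (0.836). No cause was tested for any of these.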

How the results depend on the processing

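Aldh1a1 and Cyp26a1 kept their direction and their place past the threshold under all 19 alternatives, at log2 differences of 4.03 to 4.62 and 2.27 to 2.66. Rdh2 ranged from -2.66 to -1.68 and left the threshold only with no filter on low values (-2.28). Rdh10 left it with no filter (0.44), with its brightest feature (0.46) and without 1 array in 4 of 8 cases (0.38 to 0.50 over the 8). Lrat stayed within -0.45 and -0.18 and never passed. Rbp4 changed sign after quantile normalization (0.079), with its brightest feature (0.012) and without 1 of 3 arrays (-0.088 to 0.031 over the 8). Other sign changes were in differences that had not passed: Aldh1a3 with a floor of 0.01 (-0.27) and without 1 array (-0.039 to 0.14), Ttr after quantile normalization (0.042), Aox3 without 1 array (-0.026 to 1.17) and Rxrg without 1 array (-0.023 to 0.23).

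Over all genes, 1144 passed (674 higher, 470 lower). With no filter, 739 passed (278 lower). With the replicate number as a block, 583 passed (354 higher, 229 lower), along with 1463 of the features in place of 2957. Deviations of same-numbered livers from their group means correlated at 0.0762, 0.0608, -0.128 and -0.0684, and only NaPB liver 1 correlated best with its own number. So few values cannot show whether same-numbered livers shared any handling, which was not tested. The block leaves fewer residual degrees of freedom. Leaving out 1 array gave 622 to 958 genes (384 to 551 higher, 238 to 417 lower) and 1561 to 2502 features, lowest without control replicate 2. The total was also over 1.5 times smaller without control replicate 1 or 3 (688 and 747 genes). Among the other named genes past the threshold, the block also took Rdh11, Dhrs3, Aldh8a1, Dgat2, Lipc, Scarb1, Rarres1 and 4 stellate cell markers below it. Over all 19 alternatives Dhrs3 lost its call in 13, Aldh8a1 in 11, Rdh11 in 6 and Rarres1 in 5. Of the other retinoid genes, 4 were higher and 7 lower. With the replicate block these were 1 and 3, with no filter or the brightest feature 2 were higher, and without 1 array 1 to 4 were higher. The cause of these shifts was not tested.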
